A study of Mus musculus with 42 samples.

Results

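The dopamine receptor family was followed through 6 mouse brain regions. Its members, Drd1, Drd2, Drd3, Drd4 and Drd5, were chosen by gene symbol, and all 5 were present in both deposited tables, out of 44514 gene identifiers in all. RNA with a poly-A tail was sequenced from 42 pieces of fresh brain tissue in 14 groups of 3. The nucleus accumbens (NAc), ventral tegmental area (VTA), lateral hypothalamus (LH), medial prefrontal cortex (mPFC) and ventral hippocampus (vHippo) each gave 3 libraries of mice after chronic restraint stress (CRS), a repeated confinement used to model depression, and 3 of naive mice. The lateral habenula (LHb) gave 3 libraries each of CRS mice with high immobility in the forced swim test (FST, over 110 s), CRS mice with low immobility (50 to 110 s), naive mice with high immobility (50 to 80 s) and naive mice with low immobility (under 50 s). Immobility was scored 2 days before the tissue was taken, and for the 5 other regions the labels give no immobility class. Strain, age and sex are not given in the sources used here. The labels do not say that the libraries of a group came from separate animals, so p-values measure the spread between these libraries, which may in part be technical. Nor do they say whether regions came from the same mice, and the tests between regions treat the 30 libraries as independent.

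Dopamine receptors are G protein-coupled receptors of the cell surface. Drd1 and Drd5 encode the D1-like receptors, which raise cyclic AMP through the stimulatory G proteins Gs and Golf, and Drd2, Drd3 and Drd4 encode the D2-like receptors, which lower it through Gi and Go. In the striatum, of which NAc is the ventral part, Drd1 and Drd2 mark largely separate classes of projection neuron, while in VTA dopamine neurons carry Drd2 as an autoreceptor that restrains their own firing and release.

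The start regions of 3 of these genes are shown because these 3 receptors lead the family in NAc and their base composition differs. Sequences are from RefSeq on build GRCm38.p6, 5′ to 3′ on the strand of the gene, and end before the first annotated exon base at that position. Capitals mark GC boxes, GGGCGG or its reverse complement CCGCCC.
Drd1, chr13:54055706-54055908, minus strand: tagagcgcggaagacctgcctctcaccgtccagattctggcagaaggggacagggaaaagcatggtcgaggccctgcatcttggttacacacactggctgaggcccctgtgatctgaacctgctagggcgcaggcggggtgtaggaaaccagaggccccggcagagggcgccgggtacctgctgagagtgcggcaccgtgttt
Drd2, chr9:49340153-49340402, plus strand: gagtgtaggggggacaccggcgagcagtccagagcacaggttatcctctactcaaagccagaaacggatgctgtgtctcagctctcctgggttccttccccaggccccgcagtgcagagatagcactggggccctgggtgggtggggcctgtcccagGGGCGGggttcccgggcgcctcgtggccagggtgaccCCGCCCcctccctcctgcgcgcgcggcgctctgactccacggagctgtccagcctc
Drd3, chr16:43761971-43762207, plus strand: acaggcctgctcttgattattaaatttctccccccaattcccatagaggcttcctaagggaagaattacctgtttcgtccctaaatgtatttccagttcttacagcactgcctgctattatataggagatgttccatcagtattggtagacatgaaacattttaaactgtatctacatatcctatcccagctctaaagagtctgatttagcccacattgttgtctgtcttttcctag
The stretches shown are 203 bases for Drd1, 250 for Drd2 and 237 for Drd3. Over the full 250 bases upstream, 64.0% were G or C for Drd1, 68.8% for Drd2 and 39.2% for Drd3, against a median of 52.4% in 32851 RefSeq promoters over the same length. In that window Drd2 held 2 GC boxes and Drd1 and Drd3 none, and 32.7% of the promoters held at least 1 on either strand. The Drd3 window held the letters CCAAT or ATTGG at 2 places, as 33.8% of promoters did at least once. TATAAA, in 12.4% of promoters, and TGACG, the first part of a cyclic AMP response element, in 17.8%, were searched on both strands and appeared in none of the 3 windows. RefSeq lists a further Drd1 start, whose window at chr13:54054781-54055030 is not shown and held 1 GC box. The Drd3 stretch lies inside the span annotated for that gene, which starts further upstream. A match of letters is a description of the stretch and not a binding site.

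In the table of the 5 regions, Drd1 (ENSMUSG00000021478) lay on chromosome 13 from 54051183 to 54055705, Drd2 (ENSMUSG00000032259) on chromosome 9 from 49340627 to 49408177, and Drd3 (ENSMUSG00000022705) on chromosome 16 from 43754026 to 43822932. Drd4 (ENSMUSG00000025496) lay on chromosome 7 from 141292006 to 141296464, and Drd5 (ENSMUSG00000039358) on chromosome 5 from 38319367 to 38322518. These starts and ends equal those of GENCODE M21 on GRCm38, and the LHb table used other coordinates. Drd5 overlaps the antisense gene Gm26560, which stood at 0 to 0.623 FPKM over the 42 libraries, and Drd3 overlaps a microRNA gene, Gm25996, on its own strand. Whether the counting used strand is not given, so reads of Drd5 and Gm26560 may not be told apart.

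Each of the 12 LHb libraries held 56459734 to 79849567 counts, and each of the 30 others 53143878 to 81384893. Region markers matched the labels in most libraries. The 8 habenula genes summed to 719 to 1015 FPKM in LHb and to at most 43.5 FPKM in any other region. They do not separate lateral from medial habenula. Tac2 and Chrnb4, genes of medial habenula among them, ran from 122 to 214 and from 45.6 to 67.4 FPKM in LHb. How much medial habenula the LHb libraries hold was not tested. Several libraries stood apart from their region. VTA naive 2 had the dopamine transporter gene Slc6a3 at 1.63 FPKM, against a VTA median of 123, beside the hypothalamic genes Hcrt at 45.7 and Pmch at 136 FPKM. NAc naive 1 had the cortical glutamate transporter gene Slc17a7 at 180 FPKM, NAc CRS 1 and 2 had it at 67.4 and 63.1, and the 3 other NAc libraries had 0.507 to 3.54 FPKM. LH naive 2 had the lowest Hcrt of its region, 32.7 FPKM, against a median of 334. LH naive 1 and 2 had the thalamus gene Prkcd at 32.5 and 25.6 FPKM, against 1.58 to 2.31 in the other LH libraries. Their values of the myelin gene Mbp were 718 and 717 FPKM, against 215 to 322 in the others. In mPFC, CRS 3 had the dopamine synthesis gene Th at 40.9 FPKM, against a median of 1.21. VTA naive 2, NAc naive 1, LH naive 2 and mPFC CRS 3 are the 4 libraries left out together below as standing apart. NAc CRS 1 and 2, LH naive 1 and VTA CRS 1, which had Pmch at 129 FPKM, were kept in that setting. Also kept were mPFC naive 3 and VTA naive 3. The first had Igf2, listed as a gene of the meninges, at 54.4 FPKM, against 0.869 to 11.6 in the other mPFC libraries. The second had Slc17a7 at 13.6 FPKM, against a VTA median of 0.684. In LHb, pancreas genes summed to 355 to 457 FPKM in CRS high 2, CRS high 3, CRS low 2 and naive high 3 and to at most 0.535 FPKM in the other libraries, and choroid plexus genes summed to 2954 FPKM or more in CRS high 1, CRS low 1 and naive low 1 and to at most 121 FPKM elsewhere.

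Drd1 and Drd2 were the abundant receptors, and NAc was the region where both stood highest. FPKM (fragments scaled to transcript length and library size) allows genes to be compared per length. Drd1, the main D1-like receptor of the forebrain, ran from 25.5 to 62.0 FPKM in the 6 NAc libraries with a median of 38.3. In mPFC it ran from 1.29 to 4.98 with a median of 3.02 FPKM. In vHippo it ran from 0.621 to 1.004 FPKM with a median of 0.850. Each NAc library lay above every library of the other regions, and every mPFC library lay above every vHippo library. Drd1 averaged 0.720 ± 0.223 FPKM in LH, 0.595 ± 0.215 in LHb and 0.503 ± 0.195 in VTA (SD, n = 6, 12 and 6), ranges that overlapped each other. The order of Drd1 means was NAc, mPFC, vHippo, LH, LHb and VTA. The LHb libraries are in a table of their own, so their levels are set beside the others without a test.

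Each pair of the 5 regions was tested for every receptor with edgeR's quasi-likelihood F test on counts, with Benjamini-Hochberg adjustment over 24244 genes and a threshold of 0.05. Of these 50 receptor tests 29 passed, while between 4.03% and 33.7% of all genes passed in a pair, and with naive libraries alone 17 passed. In bulk tissue, fewer cells of a type and less RNA per cell cannot be told apart. Drd1 was 12.3-fold higher in NAc than in mPFC (log2 fold change 3.62 ± 0.29 SE, adjusted p = 8.43e-09), its nearest region, in a pair where 15.4% of genes passed. It was also 4.99-fold higher in mPFC than in LH (2.32 ± 0.28, adjusted p = 1.08e-06), where 28.8% passed. Below mPFC the order was not fixed by the tests. Drd1 in vHippo and LH differed by a log2 fold change of 0.29 ± 0.28 (adjusted p = 0.499), with 26.3% of genes called. In VTA and LH it differed by -0.50 ± 0.28 (adjusted p = 0.347), with 4.03% called, 976 genes, a count that ran from 18 with naive libraries only to 2572 without the libraries that stood apart. The difference between vHippo and VTA, 0.79 ± 0.28 (adjusted p = 0.0327), with 32.8% of genes called, missed the threshold without vHippo naive 1 or 2, vHippo CRS 2 or 3, VTA naive 1 or 3 or VTA CRS 2 or 3 (adjusted p from 0.0602 to 0.108, 1 library left out at a time).

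Drd5, the D1-like receptor with high affinity for dopamine, had the flattest distribution and its highest level in vHippo. It ran from 0.703 to 2.89 FPKM in vHippo, with a median of 1.91, and averaged 1.88 ± 0.75 FPKM (SD, n = 6). The lowest vHippo library, naive 1, lay within the range of other regions. The next means were 0.986 ± 0.312 FPKM in LHb (n = 12), 0.977 ± 0.376 in LH, 0.857 ± 0.356 in mPFC, 0.746 ± 0.207 in NAc and 0.481 ± 0.147 in VTA (n = 6 each). Drd5 was 3.91-fold higher in vHippo than in VTA (log2 fold change 1.97 ± 0.34, adjusted p = 6.1e-05) and 2.48-fold higher in vHippo than in NAc (1.31 ± 0.33, adjusted p = 0.00648), where 15.9% of genes passed. It was 2.11-fold higher in vHippo than in mPFC (1.08 ± 0.33, adjusted p = 0.0432), where 7.58% passed, and 1.98-fold higher than in LH (0.99 ± 0.33, adjusted p = 0.0263). Without the 4 libraries whose region markers stood apart, the difference from mPFC had an adjusted p of 0.0756 and that from LH of 0.0658. The difference from mPFC also missed the threshold without any one of vHippo naive 2 or 3, vHippo CRS 1, 2 or 3, mPFC naive 1 or 3 or mPFC CRS 1, 2 or 3 (adjusted p from 0.0529 to 0.156). The difference from LH did so without vHippo naive 2 or 3, vHippo CRS 1 or 2, LH naive 2 or LH CRS 2 or 3 (adjusted p from 0.0502 to 0.118). Among mPFC, NAc and LH no Drd5 difference passed. The values were lower in VTA than in mPFC (-0.89 ± 0.33, adjusted p = 0.0388), where 33.7% of genes passed, and this missed the threshold without VTA naive 1 or 3, VTA CRS 2 or 3, mPFC naive 2 or mPFC CRS 1 or 2 (adjusted p from 0.067 to 0.152).

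Drd2, the main D2-like receptor and the target of antipsychotic drugs, was high in NAc and in VTA. It ran from 27.5 to 64.8 FPKM in NAc with a median of 41.5. In VTA it ran from 6.02 to 64.9 with a median of 19.0 FPKM. Of the 6 VTA libraries 5 lay below every NAc library, and CRS 3 alone reached the NAc range. In LH it ran from 2.49 to 11.7 FPKM with a median of 6.39. Drd2 averaged 45.3 ± 15.2 FPKM in NAc, 24.8 ± 20.8 in VTA and 6.73 ± 2.96 in LH (SD, n = 6 each), 1.50 ± 0.459 in LHb (n = 12), 0.893 ± 0.454 in mPFC and 0.866 ± 0.158 in vHippo (n = 6 each). It was 3.63-fold higher in VTA than in LH (log2 fold change 1.86 ± 0.38, adjusted p = 0.00761), where 4.03% of genes passed. The ranges of VTA and LH overlapped through VTA naive 2, at 6.02 FPKM, the library with low Slc6a3. Without any one library the log2 fold change ran from 1.415 to 2.049. With naive libraries only, 18 genes passed in this pair. Drd2 was also higher in LH than in mPFC. The mPFC level was 6.87-fold lower than that of LH (-2.78 ± 0.41, adjusted p = 1.17e-05). VTA was lower than NAc by -0.97 ± 0.37 (adjusted p = 0.0481) in a pair where 32.6% of genes passed. That difference missed the threshold without VTA naive 2 or 3, VTA CRS 1 or 2, NAc naive 1 or 3 or NAc CRS 1 or 3 (adjusted p from 0.0798 to 0.135), and without the libraries that stood apart (adjusted p = 0.122). vHippo and mPFC differed by -0.08 ± 0.40 (adjusted p = 0.969).

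Drd3, a D2-like receptor of the ventral striatum, was far scarcer than Drd2 in NAc and was close to 0 in most other libraries. In the 6 NAc libraries it ran from 1.02 to 2.50 FPKM with a median of 1.82. LH had 0 to 0.623 FPKM, VTA 0.0387 to 0.799, LHb 0 to 0.280, mPFC 0 to 0.199 and vHippo 0 to 0.0605 FPKM. Every NAc library lay above every other library. Drd3 was 43.9-fold higher in NAc than in mPFC (log2 fold change 5.46 ± 1.09, adjusted p = 0.000992) and 8.23-fold higher in NAc than in LH (3.04 ± 0.94, adjusted p = 0.0201), where 23.4% of genes passed. Without LH naive 3 or LH CRS 1 that second value had an adjusted p of 0.0523 or 0.0571. The fold against mPFC rests on few reads, since mPFC held 35 Drd3 counts in all and 0 in 3 of its 6 libraries, so its size is uncertain. VTA was 8.77-fold lower than NAc (-3.13 ± 0.94, adjusted p = 0.0124). The values of LH and VTA differed by less than their error (VTA over LH -0.09 ± 0.89, adjusted p = 0.994).

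Drd4, the D2-like receptor of retina and cortex, was near the limit of detection. Its counts ran from 6 to 42 in the 12 LHb libraries, all of which had reads, and from 0 to 17 in mPFC. It was listed with 0 counts in 5 of 6 VTA libraries, 4 of 6 LH libraries and 4 of 6 NAc libraries. Its highest mean was 0.0747 ± 0.0415 FPKM in LHb (SD, n = 12), followed by 0.039 ± 0.0291 FPKM in mPFC (n = 6). A count of 0 allows up to 3 counts in a library, so no fold is given for Drd4 between these regions. Only the pair of VTA and mPFC passed (adjusted p = 0.0304), with 4 counts in all in VTA, and it missed the threshold without VTA naive 2 or 3, VTA CRS 1, 2 or 3 or mPFC naive 1 (adjusted p from 0.0598 to 0.0624).

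**Figure D1:**
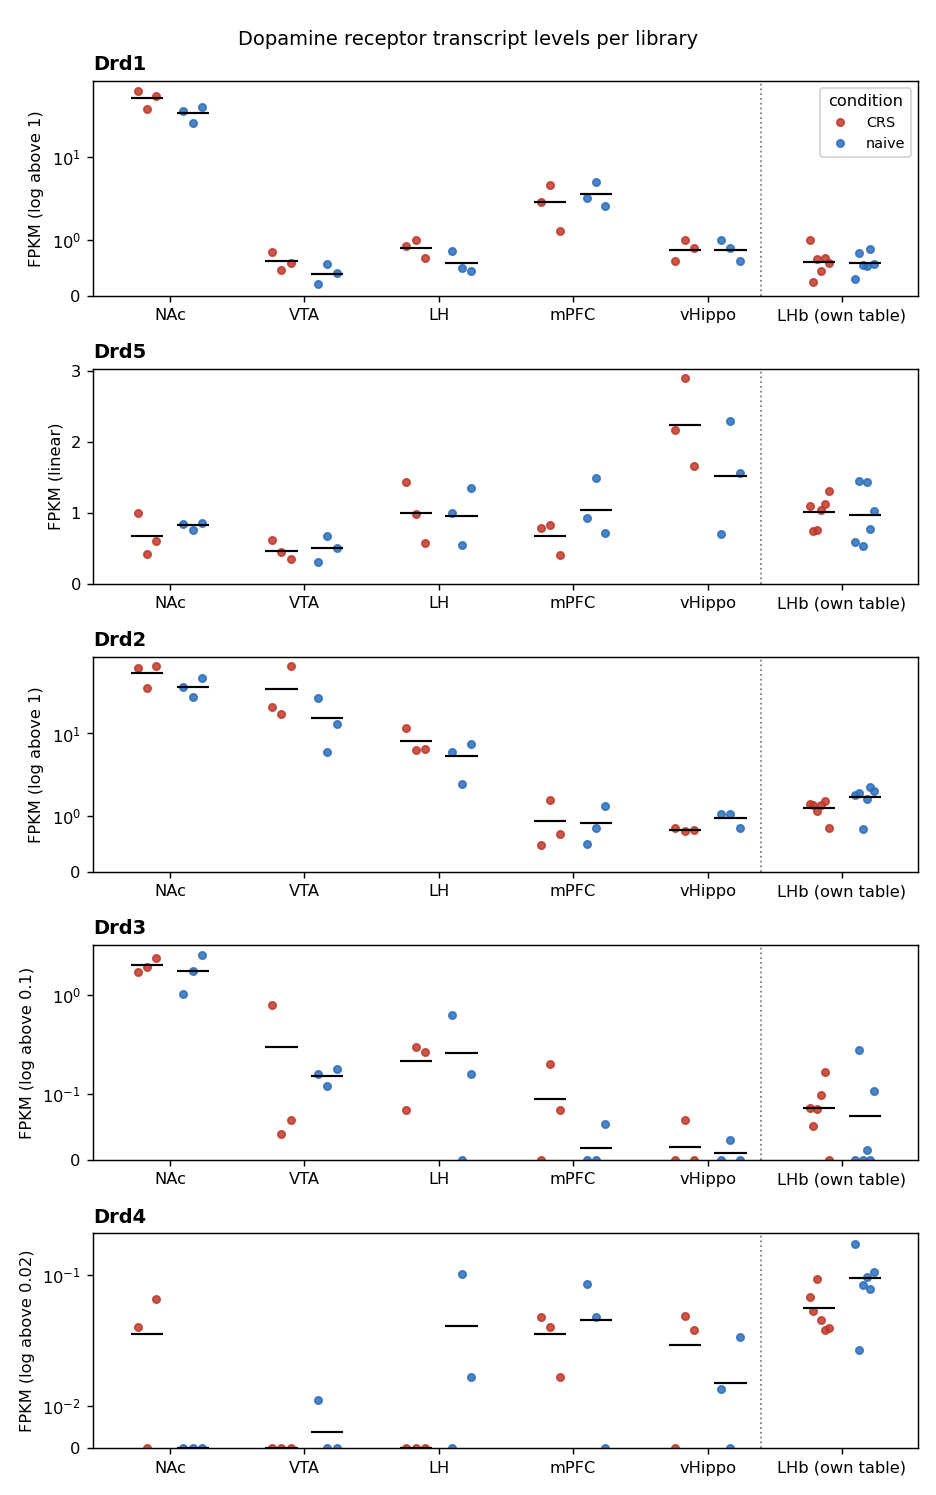
Level of each receptor gene in FPKM in every library of 6 regions, with CRS libraries left of naive ones and a black line at each group mean; all axes but that of Drd5 are linear up to the value printed on the axis and logarithmic above it. Drd1 runs from 25.5 to 62.0 FPKM in NAc and stays at or below 4.98 FPKM in every other region, while Drd5 has its highest mean, 1.88 FPKM, in vHippo.

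The make-up of the family thus differed from region to region. Of the summed FPKM of the 5 genes in NAc, Drd2 took 50.0 ± 2.49% and Drd1 46.9 ± 2.67% (SD, n = 6), a share that varied little although the sum itself ran with an SD of 28.1 around 90.1 FPKM. Drd2 took 92.5 ± 6.15% in VTA and 76.1 ± 5.88% in LH. Drd1 took 62.5 ± 7.11% in mPFC, and Drd5 took 50.5 ± 13.1% in vHippo. In LHb, Drd2 took 46.3 ± 9.51% and Drd5 30.6 ± 7.77% (n = 12) of a sum of 3.23 ± 0.72 FPKM. That mean was the lowest of the 6 regions, close to 3.61 ± 0.753 FPKM in vHippo (n = 6). The LHb libraries are in a table of their own, so this order was not tested.

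**Figure D2:**
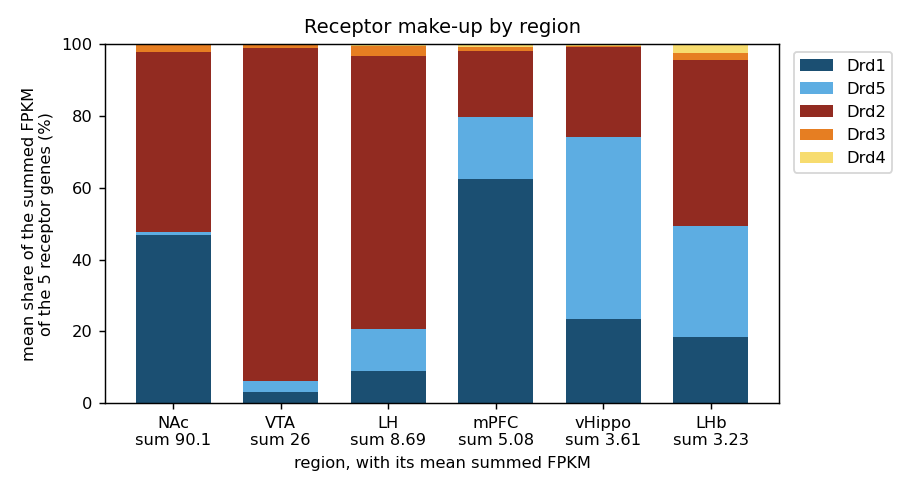
Mean share (%) of each receptor gene in the summed FPKM of the 5 genes, by region, with the mean sum under each name (n = 6 libraries, 12 in LHb). Drd1 and Drd2 fill nearly all of the NAc bar, Drd2 takes 92.5% in VTA, Drd1 62.5% in mPFC and Drd5 50.5% in vHippo.

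Partners of the receptors were counted from a list of 43 tested genes of G proteins, cyclases, kinases, phosphodiesterases, RGS proteins, arrestins and channels. Between NAc and mPFC 18 were higher, 9 lower and 16 did not pass, with a list median of 0.17 against -0.01 over all genes. Adcy5, the adenylyl cyclase that couples to both receptor classes in striatum, was higher in NAc by 2.60 ± 0.15 on the log2 scale (adjusted p = 5.41e-11). Ppp1r1b, which encodes the kinase and phosphatase regulator DARPP-32, was higher by 4.18 ± 0.25 (adjusted p = 8.91e-11). The phosphodiesterase genes Pde10a and Pde1b were higher by 3.52 ± 0.21 and 2.63 ± 0.16 (adjusted p = 8.91e-11 and 1.28e-10). In that pair 15.4% of all genes passed. Between NAc and LH, where 23.4% of all genes passed, 22 were higher and 4 lower, and between VTA and NAc, where 32.6% passed, 3 were higher and 23 lower. Between VTA and LH 1 was higher and 1 lower, and 14 had a positive and 29 a negative log2 fold change (median -0.13). Ppp1r1b was the one higher in VTA, by 0.80 ± 0.23 (adjusted p = 0.0461).

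Markers of the cells that carry the receptors differed in the same pairs. All 12 genes of striatal projection neurons had a positive log2 fold change in NAc over mPFC and 11 passed, with a median of 2.88. Genes of Drd1-type striatal neurons were higher in NAc than mPFC for 6 of 8 and lower for 1, led by Tac1 (3.61 ± 0.55, adjusted p = 5.13e-05) and Pdyn (3.20 ± 0.49, adjusted p = 5.65e-05), which encode substance P and dynorphin precursors. Genes of Drd2-type striatal neurons were higher for 5 of 6, among them Adora2a (5.95 ± 0.41, adjusted p = 7.38e-10), an adenosine receptor, and Penk (4.50 ± 0.39, adjusted p = 2.29e-08), the enkephalin precursor. Between VTA and LH all 14 genes of dopamine neurons were higher, with a median of 5.07 against 0.00 over all genes. Among genes of dopamine synthesis and transport 6 of 12 were higher in VTA than LH, where Slc18a2, the vesicular transporter, had the smallest p (3.77 ± 0.43, adjusted p = 2.14e-05) and Slc6a3 the largest log2 fold change (7.73 ± 1.14, adjusted p = 0.0004). Lists were read by these counts and medians, and how far cell make-up sets the receptor differences was not tested.

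Which genes ran most like each receptor was described by Pearson's r of log2(FPKM + 0.1) over the 30 libraries of the 5 regions, among 12899 genes. The libraries share their regions, so r is dominated by differences between regions, and no p is given. Drd1 ran closest to Sh2d5 (r = 0.961), Rgs20 (0.956), Slc4a11 (0.956), Ppp1r1b (0.953) and Sh3rf2 (0.939). Drd2 ran closest to Sv2c (0.926), a synaptic vesicle protein gene, Oprk1 (0.909), the kappa opioid receptor gene, Klhl13 (0.904), P2ry1 (0.904) and Kazn (0.894). Drd3 ran closest to Penk (0.912), Rasd2 (0.891), Gpr83 (0.891), Serpina9 (0.890) and Rgs9 (0.888). For Drd5 the values were lower, with Btbd9 (0.812), Kcng2 (0.781), Arhgap39 (0.756), Rab8b (0.750) and Mycl (0.747) first. Between receptors, r was 0.412 for Drd1 and Drd2, 0.738 for Drd1 and Drd3, 0.779 for Drd2 and Drd3 and -0.500 for Drd2 and Drd5.

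The comparison of CRS with naive mice within a region asks whether restraint stress moved the receptors. None of the receptor tests passed in any region, and 0% of all genes passed in each of the 5 regions fitted alone, by edgeR. At an unadjusted p under 0.05 there were 442 of 20275 genes in NAc, 325 in VTA, 1896 in LH, 314 in mPFC and 1330 in vHippo, and DESeq2 called 1, 8, 336, 24 and 43 genes. In LH the count was 760 without naive 3 and 0 or 1 without any other library. The fit without naive 3 keeps naive 1 and 2, the LH libraries with high Prkcd and Mbp.

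In NAc, Drd1 had 62.0, 37.2 and 52.9 FPKM in CRS mice, against 35.8, 25.5 and 39.5 FPKM in naive mice. The ranges overlapped through CRS 2 and naive 3, and the log2 fold change was 0.63 ± 0.25 (edgeR's quasi-likelihood test, unadjusted p = 0.0369, adjusted p = 1). Drd2 had 61.5, 35.0 and 64.8 FPKM in CRS mice, against 36.0, 27.5 and 47.1 FPKM in naive mice. CRS 1 and CRS 3 lay above every naive library and CRS 2 lay among them, with a log2 fold change of 0.58 ± 0.29 (adjusted p = 1). Drd3 had 1.72, 1.92 and 2.36 FPKM in CRS mice, against 1.02, 1.73 and 2.50 FPKM in naive mice, groups that overlapped (0.24 ± 0.33, adjusted p = 1). Drd5 averaged 0.672 ± 0.295 FPKM in CRS mice and 0.820 ± 0.0536 FPKM in naive mice (SD, n = 3 each).

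Markers of striatal projection neurons moved with these values. Their summed FPKM was 1413, 856 and 1398 in NAc CRS 1, 2 and 3, against 840, 677 and 1160 in NAc naive 1, 2 and 3, and all 12 genes had a positive log2 fold change (median 0.47, against -0.01 over all genes), of which 0 passed. Set against that sum, Drd1 was at 4.17 ± 0.336% in CRS mice and 3.81 ± 0.428% in naive mice, and Drd2 at 4.36 ± 0.27% and 4.13 ± 0.131% (SD, n = 3 each, two-sided exact permutation p = 0.2 for each). The ratio of Drd1 to Drd2 was 0.962 ± 0.128 in CRS mice and 0.920 ± 0.0776 in naive mice, a log2 difference of 0.06 ± 0.14 (exact permutation p = 0.7). With 3 libraries against 3 the smallest p such a test can give is 0.1.

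In VTA, Drd2 had 20.8, 17.2 and 64.9 FPKM in CRS mice, against 26.5, 6.02 and 13.2 FPKM in naive mice. CRS 3 stood far above the others and naive 2 was lowest, and the log2 fold change was 1.12 ± 0.67 (adjusted p = 1). The 14 dopamine neuron genes summed to 541, 557 and 2043 FPKM in VTA CRS 1, 2 and 3, against 809, 113 and 436 FPKM in VTA naive 1, 2 and 3. All 14 had a positive log2 fold change in CRS mice, with a median of 0.96 and none past the threshold. Relative to that sum Drd2 was at 3.37 ± 0.414% in CRS mice and 3.87 ± 1.25% in naive mice (SD, n = 3 each, exact permutation p = 0.7). Drd1 had 0.786, 0.467 and 0.591 FPKM in VTA of CRS mice, against 0.209, 0.562 and 0.402 FPKM in VTA of naive mice (0.63 ± 0.40, adjusted p = 1).

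**Figure D3:**
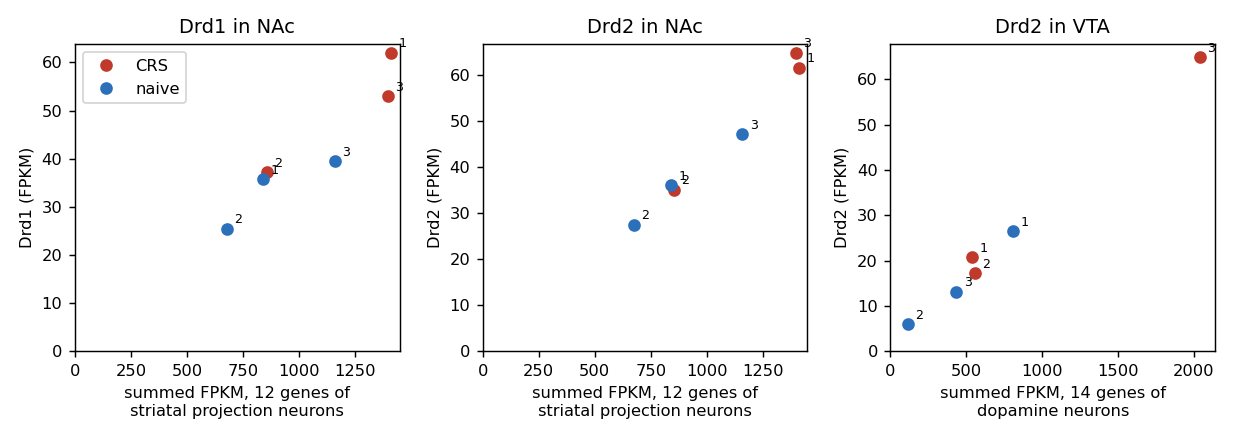
Drd1 and Drd2 in NAc against the summed FPKM of 12 striatal projection neuron genes, and Drd2 in VTA against the summed FPKM of 14 dopamine neuron genes, one point per library with its replicate number, CRS in red and naive in blue. In each panel libraries with a higher marker sum mostly have more receptor transcript, up to 64.9 FPKM of Drd2 in VTA CRS 3.

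In LH, Drd2 had 11.7, 6.25 and 6.53 FPKM in CRS mice, against 5.93, 2.49 and 7.53 FPKM in naive mice, groups that overlapped (0.53 ± 0.43, adjusted p = 0.727). The lower naive values were those of naive 1 and 2, the libraries with high Prkcd and Mbp. The part of tissue make-up in this difference was not tested. LH Drd1 averaged 0.859 ± 0.169 FPKM in CRS mice and 0.582 ± 0.196 FPKM in naive mice (SD, n = 3 each). In mPFC, Drd1 had 2.85, 4.54 and 1.29 FPKM in CRS mice, against 3.19, 4.98 and 2.59 FPKM in naive mice (-0.36 ± 0.48, adjusted p = 1), the lowest being CRS 3. In vHippo, Drd5 had 2.16, 2.89 and 1.66 FPKM in CRS mice, against 0.703, 2.30 and 1.56 FPKM in naive mice (0.53 ± 0.41, adjusted p = 0.784). vHippo Drd2 was at 0.783, 0.736 and 0.757 FPKM in CRS mice, against 1.07, 1.07 and 0.783 FPKM in naive mice (-0.37 ± 0.23, adjusted p = 0.759). Drd3 in vHippo and mPFC and Drd4 in vHippo, VTA, NAc and LH fell below the filter on low counts and were not tested there. A test of whether the CRS effect differed between the 5 regions passed for 0 of the 5 receptors and 0% of 24244 genes by edgeR, with 1074 at an unadjusted p under 0.05 and 27 by DESeq2.

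**Figure D4:**
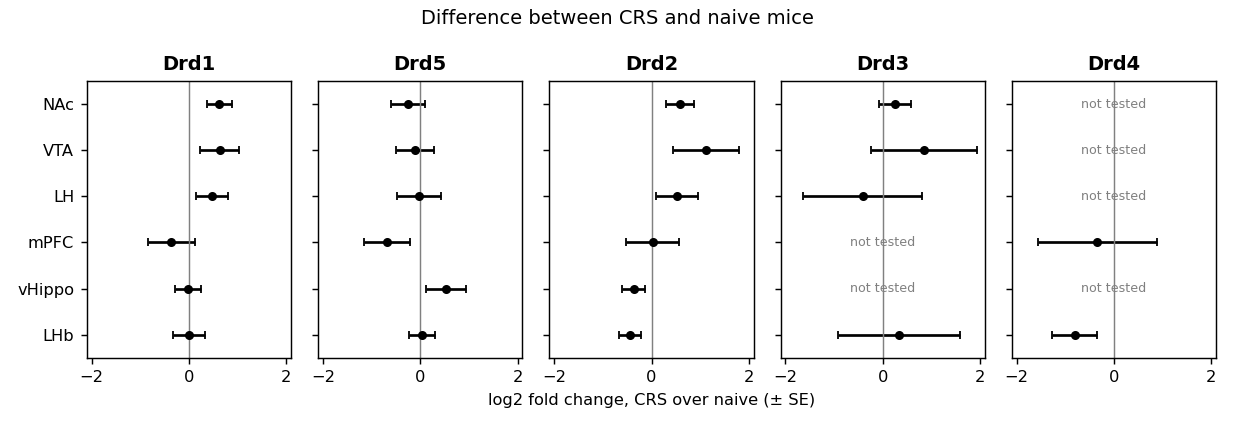
Log2 fold change of CRS over naive mice (± SE, edgeR) for each receptor in each region, with "not tested" where the gene fell below the filter on low counts. No value passed the threshold, and the smallest unadjusted p, 0.0369, is that of Drd1 in NAc at 0.63 ± 0.25.

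In LHb the receptors were compared across stress and immobility. CRS against naive mice called 273 of 23266 genes (1.17%) and 0 of the 5 receptors. Drd2 had 1.40, 1.38 and 1.16 FPKM in CRS mice with high immobility, 1.36, 1.54 and 0.783 in CRS mice with low immobility, 1.83, 1.8995 and 0.766 in naive mice with high immobility and 1.63, 2.23 and 2.03 FPKM in naive mice with low immobility. The last group lay above every CRS library, while naive high 3 was the lowest of the 12. CRS over naive gave -0.44 ± 0.23 for Drd2 (adjusted p = 0.469) and -0.81 ± 0.46 for Drd4 (adjusted p = 0.507). Drd4 averaged 0.0705 ± 0.0202 FPKM in CRS mice with high immobility, 0.0397 ± 0.00398 in CRS mice with low immobility, 0.0956 ± 0.0765 in naive mice with high immobility and 0.0931 ± 0.0139 in naive mice with low immobility (SD, n = 3 each). Drd1 and Drd5 moved by -0.01 ± 0.32 and 0.04 ± 0.27.

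High against low immobility called 715 genes (3.07%) in naive mice and 0% in CRS mice (494 at an unadjusted p under 0.05, 2 by DESeq2), and no receptor in either. Drd5 averaged 0.863 ± 0.206 FPKM in CRS mice with high immobility and 1.15 ± 0.142 in those with low immobility (-0.41 ± 0.38, adjusted p = 1), and 0.854 ± 0.511 FPKM in naive mice with high immobility and 1.07 ± 0.332 in those with low immobility (-0.28 ± 0.37, adjusted p = 0.782). CRS mice with high immobility against naive mice with low immobility called 854 genes (3.67%), again with no receptor, and gave -0.56 ± 0.33 for Drd2 (adjusted p = 0.451). The difference between the immobility effects called 47 genes (0.202%) and no receptor. LHb libraries with pancreas or choroid plexus transcripts fall in every one of these comparisons. Leaving them out left 0 receptors called, as with all libraries, so that count cannot show their part in the receptor values. Some values changed sign without them, as listed below, and their part was not tested further.

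**Figure D5:**
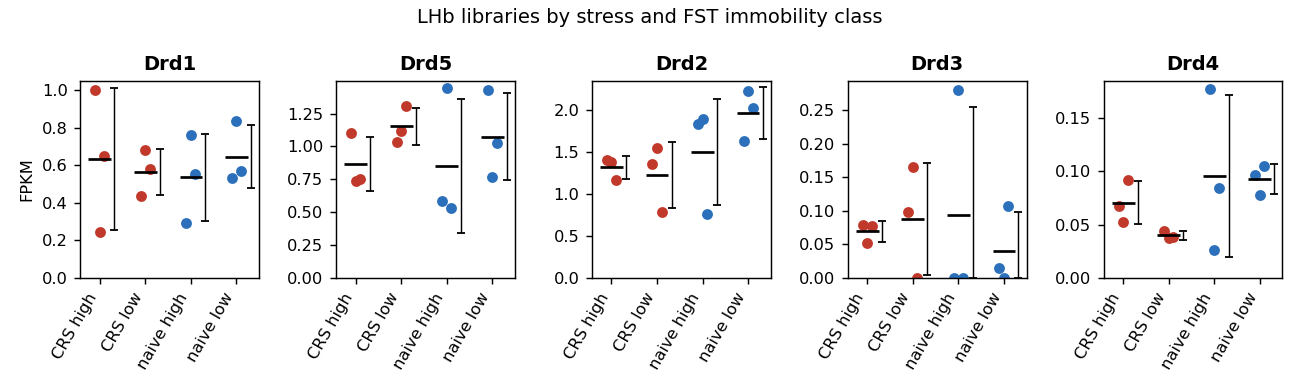
Receptor levels (FPKM) in the 12 LHb libraries by stress and immobility class, CRS groups in red and naive groups in blue, with the group mean as a line and its SD as a bar beside it, cut at 0. Groups overlap for Drd1, Drd3 and Drd5, and the highest Drd2 values, up to 2.23 FPKM, are of naive mice with low immobility.

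Of the 43 signalling partners in LHb, 1 was higher and 1 lower in CRS than in naive mice, against 1.17% of all genes called. Rgs9, which speeds the switching off of Gi and Go signals, was higher (0.48 ± 0.09, adjusted p = 0.0202), and Rgs2, which acts mainly on Gq, was lower (-0.28 ± 0.06, adjusted p = 0.038). Rgs9 had 5.39, 6.01 and 5.35 FPKM in CRS mice with high immobility and 4.62, 5.69 and 5.00 in CRS mice with low immobility, against 5.73, 3.82 and 4.94 in naive mice with high immobility and 2.86, 3.12 and 3.02 FPKM in naive mice with low immobility. The naive low group lay below all 9 other libraries. With replicate number as a block, Gsk3b passed as well under CRS (0.28 ± 0.04, adjusted p = 0.0124). In naive mice, high over low immobility was higher for 2 of 43, Rgs9 (0.72 ± 0.12, adjusted p = 0.00773) and Gsk3b (0.50 ± 0.09, adjusted p = 0.0117), a kinase gene downstream of D2-type signalling, while 3.07% of all genes passed. Markers of vessels, meninges and microglia moved in the same comparison. All 7 endothelial genes had a negative log2 fold change and 3 passed, Slco1a4, Kdr and Cdh5 (-0.84 ± 0.16, -1.23 ± 0.25 and -1.19 ± 0.25, adjusted p = 0.0164, 0.0204 and 0.0225), and their sum was 30.1 to 40.2 FPKM in naive mice with high immobility and 44.8 to 66.4 FPKM in those with low immobility. Of 7 leptomeningeal genes 6 were negative and 1 passed, Aldh1a2 (-1.97 ± 0.48, adjusted p = 0.0479), with sums of 12.1 to 17.6 and 18.3 to 123.0 FPKM in the high and low groups. Of 7 microglial genes 5 were negative and Csf1r passed (-0.43 ± 0.09, adjusted p = 0.0229), with sums of 43.9 to 49.0 and 48.9 to 58.6 FPKM. These 5 marker calls missed the threshold without the 4 libraries with pancreas transcripts (adjusted p from 0.16 to 0.29) and without naive high 3 (0.066 to 0.156), and 1 or more of them without naive high 1 or 2 or naive low 1 or 3. The part of these cells in the result was not tested. The CRS and the immobility comparison use the same naive low libraries. Without the 4 libraries with pancreas transcripts the 4 calls of Rgs9, Rgs2 and Gsk3b missed the threshold, at adjusted p = 0.715 for Rgs9 and 0.86 for Rgs2 under CRS, and 0.118 for Rgs9 and 0.0997 for Gsk3b under immobility. Under CRS, Rgs9 also missed it without naive low 3, naive high 3, CRS high 2 or CRS low 2 (adjusted p from 0.0501 to 0.0647), and Rgs2 without any of 10 of the 12 libraries, the exceptions being naive high 1 and CRS low 1 (0.0584 to 0.136). Under immobility, Gsk3b missed it without naive low 1 or 3 (0.0627 and 0.0603).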

How the data were processed

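The deposited tables held whole-number counts per gene and FPKM values for each library. Per the submitters' processing notes, the authors used cutadapt 1.9, HISAT2 2.0.4, StringTie 1.3.4d and edgeR, and named GRCm39. The starts in the table of the 5 regions equal GENCODE M21 on GRCm38 for 99.5% of matched genes and those of the LHb table for 2.18%, so no level was tested across the tables. 18 count columns that match no sample were not used. The receptors and gene lists were chosen with earlier results of these data known.

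Tests on counts used the quasi-likelihood method of edgeR 4.0.16 under R 4.3.3, two-sided, after TMM scaling and filterByExpr at a minimum count of 10. P-values were adjusted by Benjamini-Hochberg over all genes tested. CRS was tested in each region alone, LHb in one fit of 12 libraries, and region pairs in one fit of 30. Named genes were the receptors, the 5 most like each (mean FPKM of at least 1 in a region) and up to 4 of smallest p per list. DESeq2 1.42.0, limma 3.58.1 on log2(FPKM + 0.1) and log2(FPKM + 1), other filters, a replicate block and left-out libraries were alternatives. The floor of 3 counts covers counting error only. 1 list gene is not reported here. The fits were also run on simulated counts with known folds. Those counts were drawn independently for each library, without off-target tissue or shared animals, so they cannot speak to these limits. Same-numbered LHb libraries correlated over 0.1 at every number between naive low and CRS high (0.404, 0.346 and 0.198). They did so between naive low and CRS low (0.460, 0.135 and 0.287), and between no other groups compared. Between CRS high and CRS low the values were 0.605, 0.432 and -0.075. The libraries numbered 1 of these groups are those with choroid plexus transcripts, so these values cannot settle whether the numbers pair.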

Additional observations from a re-analysis of the deposited data

Results flagged for a closer look

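In 4 of 25 groups screened, each a receptor in the 6 libraries of a region, the highest library stood apart from the other 5 by more than Dixon's 95% limit allows. Chance flags about 1 in 20 groups, but 2 of the 4, Drd4 in VTA and LH, set a library against others mostly at 0 counts and are not read against that rate. VTA CRS 3 had Drd2 at 64.88 FPKM, with the next VTA library at 26.5. The dopamine neuron genes summed to 2043 FPKM in that library, the highest of the region. VTA CRS 1 had Drd3 at 0.799 FPKM, with the next at 0.177, and held 129 FPKM of the hypothalamic gene Pmch. LH naive 2, the LH library with the lowest Hcrt, had Drd4 at 0.1026 FPKM, from 20 counts. VTA naive 1 had Drd4 at 0.0114 FPKM, from 4 counts, with 0 in the 5 other VTA libraries, so any count above 0 would have stood apart. The part of cell make-up in these values was not tested.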

How the results depend on the processing

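No receptor was called in any CRS or FST comparison under the alternatives run, so changes of sign there are of values below the threshold, and their cause was not tested. Values are log2 fold changes of the first group over the second, and leaving out sets of libraries was chosen after seeing the data. None is given where over 0.5 of the libraries on a side of the comparison held 0 counts. The groups of a side were pooled for this rule, save in the difference of FST effects, where each group was taken alone. Of region pairs, 29 receptor tests passed, against 17 with naive libraries only (fewer samples), 25 to 30 without any one library and 24 to 30 under the other settings. With the replicate block 28 passed. The block changed sign for Drd1 in LHb CRS over naive (0.036) and CRS high over naive low (0.035), Drd4 in LHb naive high over low (-0.15), Drd3 in LHb CRS high over low (0.071), Drd3 in VTA CRS over naive (-0.36) and in LH CRS over naive (0.55), Drd2 (-0.025) and Drd4 (0.25) in mPFC CRS over naive, and Drd3 in VTA over LH (0.13). It also moved the Drd4 call of VTA and mPFC to adjusted p = 0.0623, no other receptor call, and called Gsk3b in LHb CRS over naive (adjusted p = 0.0124).

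Drd1 in LHb CRS over naive was 0.0065 with DESeq2 and with RLE factors, 0.0052 with at least 1 CPM in 3 libraries and 0.00052 with limma on log2(FPKM + 1). The log2(FPKM + 1) scale also gave 0.024 for Drd5 in LH CRS over naive and 0.0081 for Drd2 in vHippo over mPFC. Limma on log2(FPKM + 0.1) gave -0.053 for Drd4 in LHb naive high over low, 0.15 for Drd3 and 0.044 for Drd5 in LH CRS over naive, and 0.065 for Drd2 in vHippo over mPFC. Without the 4 libraries with pancreas transcripts, Drd1 and Drd3 in LHb CRS over naive were 0.28 and -0.25, Drd3 in CRS high over low 0.67, and Drd1 and Drd5 in CRS high over naive low 0.65 and 0.056. Without the 3 with choroid plexus transcripts, Drd1 was -0.48 in CRS high over low and -0.16 in the difference of FST effects. Naive libraries only gave 0.11 for Drd2 in vHippo over mPFC and 0.23 for Drd5 in mPFC over LH.

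Leaving out 1 library changed signs over these ranges. In LHb CRS over naive Drd1 ran from -0.25 to 0.19, Drd3 from -0.054 to 3.61 and Drd5 from -0.078 to 0.37. In naive high over low Drd1 ran from -0.56 to 0.11 and Drd4 from -0.69 to 0.48. In CRS high over low Drd1 ran from -0.34 to 0.55, Drd2 from -0.13 to 0.29 and Drd3 from -0.90 to 0.47, and in CRS high over naive low Drd1 from -0.52 to 0.37. In the difference of FST effects Drd1 ran from -0.13 to 0.75 and Drd5 from -0.39 to 0.51. For CRS over naive, Drd1 in vHippo ran from -0.19 to 0.13, Drd3 and Drd5 in VTA from -1.67 to 1.35 and from -0.35 to 0.16, Drd5 in NAc from -0.64 to 0.013, Drd1, Drd2 and Drd4 in mPFC from -0.81 to 0.038, from -0.59 to 0.39 and from -0.92 to 0.45, and Drd3 and Drd5 in LH from -1.002 to 1.298 and from -0.42 to 0.30. Between regions, Drd2 in vHippo over mPFC ran from -0.23 to 0.23, Drd3 in VTA over LH from -1.35 to 0.76 and Drd5 in mPFC over LH from -0.33 to 0.096. The log2 difference in the NAc ratio of Drd1 to Drd2 ran from -0.016 to 0.17.

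Over all genes, the LHb CRS count of 273 ran from 2 (without the pancreas libraries) to 758 (DESeq2), that of naive high over low, 715, from 138 to 1673, that of CRS high over naive low, 854, from 57 to 1591, and that of the difference of FST effects, 47, from 2 to 325, under the same settings. The count of VTA and LH, 976, ran from 339 to 1553 without any one library. Of the 5 genes named as most like a receptor, the naive libraries alone named 3 again for Drd1, 2 for Drd2, 1 for Drd3 and 0 for Drd5. On the log2(FPKM + 1) scale only Ppp1r1b and Sh2d5 were named again for Drd1, and only Gpr83 and Serpina9 for Drd3. On that scale Drd2 kept all but Kazn and Drd5 all but Mycl. Depth limits Drd3 outside NAc and Drd4 everywhere.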
